A study of Bos taurus with 8 samples.

Results

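Cadherins and protocadherins are calcium-dependent adhesion receptors of the cell surface, and 40 of the 24596 counted genes carry such a name, either CDH followed by a number (22 genes) or a name that begins with PCDH (18 genes). They were compared between chondrocytes of the superficial zone (SZCs) and of the deep zone (DZCs) from wild-type calves aged 1 to 2 weeks. Cells of each zone were isolated from knee cartilage by enzyme digestion and cultured in medium with serum for 3 days before RNA-Seq. Each zone was represented by 2 libraries, prepared with the SMART-Seq v4 Ultra Low Input kit. The methods call the libraries of a zone biological duplicates but do not say whether these were separate calves, joints or cultures. The *p*-values below therefore set the zone difference only against the spread between these libraries, modelled over all tested genes.

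Classical cadherins bind a partner on the neighbouring cell with their outer domains and hold the actin cytoskeleton through β-catenin and α-catenin at their inner end. Type I members include E-cadherin (*Cdh1*) and N-cadherin (*Cdh2*), and N-cadherin is known for the condensation of mesenchyme that precedes cartilage. Cadherin-11 (*Cdh11*) is a type II member known from bone, mesenchyme and the synovial lining, while T-cadherin (*Cdh13*) has no inner domain and is held in the membrane by a lipid anchor. Protocadherins do not bind β-catenin in this way. Those of the delta-2 group, such as *Pcdh10*, recruit the WAVE complex that builds branched actin, and those of the alpha and gamma clusters are each made by joining a variable exon to constant exons shared across the cluster.

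Library totals lay between 19918970 and 21890549 counts, so that a floor of 3 counts corresponded to between 0.129 and 0.187 CPM (counts per 1e6 reads, after TMM scaling, the trimmed mean of *M* values). The labels were checked against marker genes. All 4 superficial zone markers (*Prg4*, *Vit*, *Thbs4* and *Wif1*) passed the test and were higher in SZCs, and each of the 6 chondrocyte markers was read in every library, *Sox9* between 1228 and 2307 times. The chondrocyte list ran toward DZCs, with a median log2 fold change (SZC over DZC) of -0.84. *Matn3* was called higher in DZCs (log2 fold change -2.04, FDR 0.00212, exact test of edgeR), and *Col2a1* and *Col9a1* lay above in both DZC libraries without passing. The DZC pair was less alike than the SZC pair. *Col2a1* took 24.5% of all reads from DZC replicate 1 against 12.9% from DZC replicate 2, and several genes of hypertrophic cartilage and bone were high in DZC replicate 2 alone, which is described beside the members it touches. In these bulk libraries fewer cells of one type and less RNA per cell cannot be told apart.

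Of the 40 members, 25 had enough counts to be tested and 2 differed between the zones at a false discovery rate (FDR) of 0.05 in edgeR's exact test. *Cdh15* was higher in SZCs and *Pcdh10* was higher in DZCs. This is 2 of 25, where 2.93% of all 12857 tested genes were called. By direction it is 1 member each, where 2.23% of all tested genes were called higher in SZCs and 0.700% were called higher in DZCs. The call depended on the test, since edgeR's quasi-likelihood test called 0.00% of all tested genes and 0 members (5 at an unadjusted *p* under 0.05). With the replicate number added to that test as a block, 3 members passed (*Cdh13* beside those already named), against 2.70% of all tested genes. It depended on the libraries too. The exact test called 1 of 25 members without SZC replicate 1 (0.529% of all tested genes) and 1 without SZC replicate 2 (1.26%), *Pcdh10* in each case. It called 4 without DZC replicate 1, against 6.68% of all tested genes, and 6 without DZC replicate 2, against 21.5%, so that the last count was near that of all genes. A further 23 members did not pass the exact test, and 5 of the 25 had an unadjusted *p*-value under 0.05, against 9.09% of all tested genes. In 10 of the 25 the SZC and DZC values did not overlap, 7 with SZCs above and 3 with DZCs above, while 21.0% and 20.5% of all tested genes were separated in those directions. The log2 fold change (SZC over DZC) was above 0 in 14 of the 25, against 46.6% of all tested genes. Its median over the 25 was 0.12, against -0.04 for all tested genes, and it moved between -0.060 and 0.72 with the library left out. The tested cadherins had a median of 0.32 (12 genes) and the tested protocadherins one of -0.27 (13 genes).

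**Figure D1:**
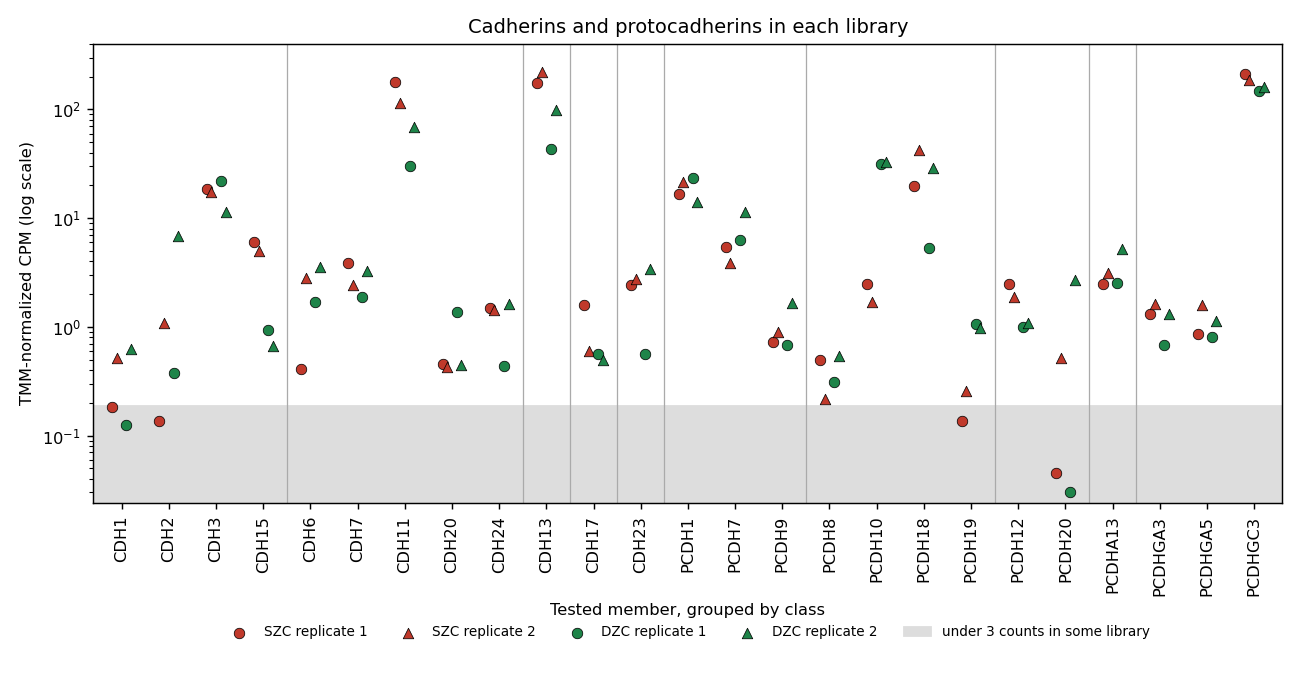
TMM-normalized CPM (log axis) of the 25 tested members in each of the 4 libraries, with red symbols for SZCs, green symbols for DZCs, circles for replicate 1 and triangles for replicate 2. Vertical lines separate the classes, grey marks levels under 3 counts in at least 1 library, the count of 0 of *Pcdh20* in DZC replicate 1 is drawn near the lower edge, and the *Pcdh10* values of the DZCs, 31.6 and 32.5 CPM, stand apart from those of the SZCs.

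*Pcdh10* (listed as ENSBTAG00000019977), the delta-2 protocadherin also called OL-protocadherin, had 54 and 39 counts from the SZC pair against 509 and 726 from the DZC pair. After scaling these were 2.45 and 1.68 CPM in SZCs and 31.6 and 32.5 CPM in DZCs. Both DZC libraries lay far above both SZC libraries, and the DZC values were close to each other. The mean level was 2.07 ± 0.546 CPM for SZCs against 32.1 ± 0.620 CPM for DZCs (SD, n = 2 each). The log2 fold change was -3.96 ± 0.42 (SE), with an FDR of 2.52e-14 from the exact test of edgeR, which is a 15.5-fold higher level in DZCs. The call held whichever library was left out, with log2 fold changes between -4.25 and -3.71. The quasi-likelihood test of edgeR gave *Pcdh10* an FDR of 0.0775.

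The other delta-2 members did not follow *Pcdh10* at the FDR threshold. *Pcdh19*, an X-linked member known for its role in the brain, had 3 and 6 counts from the SZC pair against 17 and 22 from the DZC pair. Its zones did not overlap, and its log2 fold change was -2.33 ± 0.84 (SE), with an FDR of 0.150 from the exact test of edgeR. *Pcdh18* had 434 and 974 counts from the SZC pair against 86 and 650 from the DZC pair, at 19.7, 41.9, 5.35 and 29.1 CPM. The DZC values lay on both sides of the lower SZC value, and the log2 fold change was 0.84 ± 0.81 (SE), with an FDR of 0.961 from the exact test of edgeR. Without DZC replicate 2 the log2 fold change became 2.55 and without DZC replicate 1 it became 0.09. It was 1.28 without SZC replicate 1 and 0.19 without SZC replicate 2. The size of the difference thus rested on which libraries of either zone were used. *Pcdh8* was at most 12 counts in any library, with a log2 fold change of -0.27, and *Pcdh17* was at most 6 counts and was not tested. In the RefSeq annotation of the cow assembly ARS-UCD2.0, *Pcdh10* and *Pcdh18* lie on the same chromosome with 3 protein-coding genes between them.

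*Cdh15* (ENSBTAG00000011530), the type I member known as M-cadherin and best known from muscle cells, had 134 and 116 counts from the SZC pair against 15 from each DZC library. After scaling the values were 6.085 and 4.995 CPM in SZCs and 0.933 and 0.672 CPM in DZCs, with no overlap. The mean was 5.54 ± 0.770 CPM for SZCs against 0.802 ± 0.184 CPM for DZCs (SD, n = 2 each). The log2 fold change was 2.79 ± 0.63 (SE), with an FDR of 0.00200 from the exact test of edgeR, a 6.92-fold higher level in SZCs. Muscle markers were at or near 0 in the same libraries. *Myod1* and *Myog* had 0 counts in all 4, *Myf5* had 1 count in DZC replicate 2 and none elsewhere, and the 4 muscle genes summed to between 0.227 and 0.344 CPM in SZCs and between 0.124 and 0.448 CPM in DZCs. The log2 fold change of *Cdh15* ranged from 2.58 to 3.03 when single libraries were removed, but its FDR by edgeR's exact test was 0.674 without SZC replicate 1 and 0.293 without SZC replicate 2. In edgeR's quasi-likelihood test its FDR was 0.192.

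Of the other type I members, *Cdh3* (P-cadherin) had 407 counts from each SZC library against 350 and 253 from the DZC pair. These were 18.5 and 17.5 CPM in SZCs and 21.8 and 11.3 CPM in DZCs, a log2 fold change of 0.12 ± 0.46 (SE) and an FDR of 1 from the exact test of edgeR. Both SZC values fell between the DZC values. *Cdh1* (E-cadherin), its direct neighbour among the protein-coding genes of the RefSeq annotation, was counted only 4, 12, 2 and 14 times in SZC replicates 1 and 2 and DZC replicates 1 and 2. The 4 genes of the epithelial list summed to between 1.41 and 5.56 CPM over the 4 libraries. *Krt8*, the most read, overlapped between the zones with a log2 fold change of -0.84, and *Krt18*, the other tested gene, was at 0.14. *Cdh4* had 3 counts in SZC replicate 2 and none in the other libraries.

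*Cdh11* and *Cdh13* were, together with the gamma-cluster gene *Pcdhgc3*, the members with the most reads. These 3 genes took between 68.1% and 86.5% of all reads on the 40 members in a library. *Cdh11* (ENSBTAG00000032092) had 3968 and 2667 counts from the SZC pair against 489 and 1545 from the DZC pair, or 180 and 115 CPM against 30.4 and 69.2 CPM. The zones did not overlap, and each pair of replicates differed considerably, so that the means were 148 ± 46.2 CPM for SZCs against 49.8 ± 27.4 CPM for DZCs (SD, n = 2 each). The log2 fold change was 1.57 (standard error 0.52) and it did not pass the threshold, with an unadjusted *p* of 0.00323 and an FDR of 0.0898 from the exact test of edgeR. *Cdh13* (ENSBTAG00000034373) had 3894 and 5142 counts from the SZC pair against 699 and 2228 from the DZC pair, at 177 and 221 CPM against 43.5 and 99.8 CPM. Its zones did not overlap either, and its log2 fold change was 1.47 ± 0.49 (SE), with an FDR of 0.0983 from the exact test of edgeR. In edgeR's quasi-likelihood test the FDR of *Cdh13* was 0.420 without the replicate block and 0.0458 with it. In both genes DZC replicate 1 was the lowest library. With DZC replicate 2 left out the log2 fold changes were 2.30 for *Cdh11* and 2.22 for *Cdh13*, and both passed (FDR 1.57e-07 and 1.20e-08 by edgeR's exact test). With DZC replicate 1 left out they were 1.09 and 1.00, and neither passed.

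Markers of synovial fibroblasts, cells that are known to express *Cdh11*, were read in the same libraries. Of the 5 genes in that list 4 were tested. *Vcam1* was called higher in SZCs, with a log2 fold change of 3.51, while *Cd55*, *Pdpn* and *Thy1* were not called. *Cd55* had 739 and 620 counts from the SZC pair and 4 and 112 from the DZC pair, so that it too lay above in SZCs, whereas *Pdpn* lay above in DZCs. *Dpp4* had at most 3 counts in a library. The summed level of the list ranged from 890 to 1028 CPM in SZCs and from 946 to 1170 CPM in DZCs. Their part in the *Cdh11* values was not tested.

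**Figure D2:**
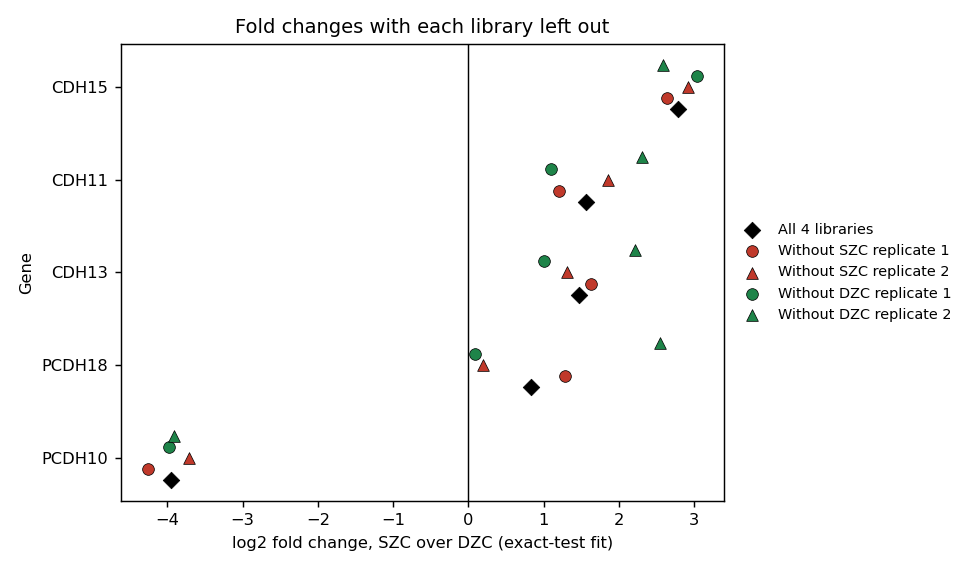
Log2 fold changes (SZC over DZC) of *Cdh15*, *Cdh11*, *Cdh13*, *Pcdh18* and *Pcdh10* with all 4 libraries (black diamonds) and after removing each library (coloured symbols). The 5 estimates of *Pcdh10* and those of *Cdh15* stayed close together, whereas those of *Pcdh18* ranged from 0.09 to 2.55 with the DZC library that was left out.

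The remaining tested type II members had at most 85 counts in a library. *Cdh7* had 85 and 56 counts from the SZC pair against 30 and 73 from the DZC pair, *Cdh24* 33 and 33 against 7 and 36, and *Cdh6* 9 and 66 against 27 and 79. *Cdh20* was counted 10 times in each library except DZC replicate 1, where it was counted 22 times. All 4 overlapped between the zones, and their log2 fold changes lay between -1.01 and 0.49. *Cdh8* and *Cdh5* (VE-cadherin, the cadherin of endothelial junctions) flank *Cdh11* in the RefSeq gene order with no protein-coding gene between, and had at most 9 and 10 counts in a library. *Cdh5* was counted 1, 10, 0 and 7 times, and was higher in replicate 2 of each zone. The 8 endothelial markers summed to 6.04 and 14.1 CPM in SZCs and 4.17 and 8.29 CPM in DZCs, and so were also higher in replicate 2 of each zone, although 0 of the 4 tested were called between the zones by edgeR's exact test (1 at an unadjusted *p* under 0.05). *Vwf*, the most read of them, had 49 and 75 counts from the SZC pair against 54 and 100 from the DZC pair. Haematopoietic markers showed the same order, with 17.8 and 29.0 CPM in SZCs and 6.78 and 13.4 CPM in DZCs, and *Cd14*, the most read, lay above in SZCs with a log2 fold change of 1.41 (FDR 0.142, exact test of edgeR). The part of such cells in the values of the members was not tested.

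Among the other single cadherins, *Cdh17*, a member with an additional pair of outer domains known from intestine and liver, had 35 and 14 counts from the SZC pair against 9 and 11 from the DZC pair. Its SZC values, 1.59 and 0.603 CPM, were above its DZC values, 0.560 and 0.493 CPM. Its log2 fold change was 1.05 ± 0.83 (SE), with an FDR of 0.917 from the exact test of edgeR, and was 0.20 without SZC replicate 1. *Cdh23*, known from the tip links of hair cells, had 53 and 64 counts from the SZC pair against 9 and 76 from the DZC pair. It overlapped between the zones, and its log2 fold change of 0.37 became -0.40 without DZC replicate 1 and 2.22 without DZC replicate 2, where it passed (FDR 0.0357, exact test of edgeR). Its partner in tip links, *Pcdh15*, had 0 counts in every library.

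**Figure D3:**
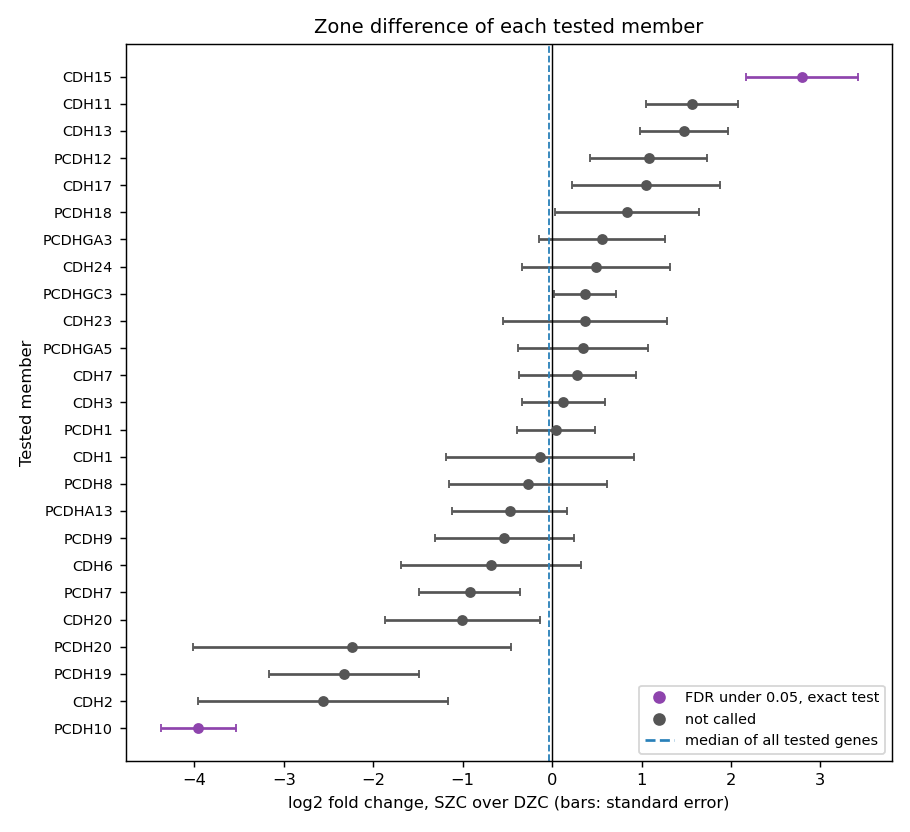
Log2 fold change (SZC over DZC) of each of the 25 tested members, with bars for the standard error. Purple marks the 2 members called by edgeR's exact test, *Cdh15* at 2.79 and *Pcdh10* at -3.96, and the dashed line marks the median of all tested genes, -0.04.

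Of the clustered protocadherins, 4 were tested and none passed the exact test of edgeR, with 0 at an unadjusted *p* under 0.05 and 0 called by DESeq2 or edgeR's quasi-likelihood test. *Pcdhgc3* (ENSBTAG00000017349) had 4666 and 4314 counts from the SZC pair against 2359 and 3597 from the DZC pair. After scaling, these were 212 and 186 CPM against 147 and 161 CPM, so that the zones did not overlap, and the means were 199 ± 18.5 CPM for SZCs against 154 ± 10.2 CPM for DZCs (SD, n = 2 each). Its log2 fold change was 0.37 ± 0.35 (SE), with an FDR of 0.948 from the exact test of edgeR, the smallest standard error among the 25 tested members. *Pcdhga3* and *Pcdhga5* had between 11 and 38 counts in a library, with log2 fold changes of 0.56 and 0.34. *Pcdha13* had 54 and 72 counts from the SZC pair against 41 and 115 from the DZC pair, with a log2 fold change of -0.48, and *Pcdha2*, *Pcdha3* and *Pcdhb1* had at most 1 count. Reads on the constant exons of the alpha and gamma clusters could be given to any gene of a cluster or to none, depending on the counting, so the counts of single clustered genes are uncertain. In addition, 6119 rows of the count table had no name, of which 19 could be named from the authors' second table, so these 7 clustered genes need not be all that were counted.

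*Pcdh1* and *Pcdh7*, both delta-1 protocadherins, were the other well-covered members. *Pcdh1* had 371 and 502 counts from the SZC pair against 376 and 312 from the DZC pair, at 16.8 and 21.6 CPM against 23.4 and 14.0 CPM. The SZC values lay within the range of the DZC values, and its log2 fold change of 0.04 (standard error 0.44) took the opposite sign, -0.15, without SZC replicate 2 and -0.26 without DZC replicate 2. *Pcdh7* was at 5.45 and 3.83 CPM in SZCs and at 6.28 and 11.3 CPM in DZCs. Its zones did not overlap, and the log2 fold change was -0.92 ± 0.56 (SE), with an FDR of 0.749 from the exact test of edgeR. *Pcdh9* overlapped between the zones, at no more than 37 counts. *Pcdh12*, a protocadherin known from endothelial cells, had 55 and 44 counts from the SZC pair against 16 and 24 from the DZC pair. Its zones did not overlap, and its log2 fold change was 1.08 ± 0.65 (SE), with an FDR of 0.755 from the exact test of edgeR. After scaling its values were 2.497 and 1.89 CPM in SZCs and 0.995 and 1.08 CPM in DZCs. Of the endothelial markers, *Kdr*, *Tie1* and *Egfl7* also lay above in SZCs, *Vwf* lay above in DZCs and the other 4 overlapped. *Tie1* and *Egfl7* had too few counts to be tested, at most 29 and 8 in a library. The part of the endothelial markers in the *Pcdh12* values was not tested.

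*Cdh11*, *Cdh13*, *Pcdh12* and *Cdh17* were, beside *Cdh15*, the members that lay higher in both SZC libraries with a log2 fold change of at least 1. These made 5 of 25, where 7.65% of all tested genes met the same rule. *Pcdh10* and *Pcdh19* met it in the other direction, 2 of 25, against 2.99% of all tested genes. In sum over the 40 members the level was 657 and 637 CPM in SZCs and 324 and 465 CPM in DZCs. Without *Pcdhgc3*, *Cdh13* and *Cdh11* the sums were 88.6 and 115 CPM in SZCs and 104 and 135 CPM in DZCs, which overlapped.

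Many members differed between the DZC libraries themselves. In SZCs, 13 of the 25 tested were lower in replicate 1 than in replicate 2, against 50.0% of all tested genes. In DZCs, 19 of the 25 were lower in DZC replicate 1 than in DZC replicate 2 after scaling, against 51.0% of all tested genes, and 5 were more than 4-fold lower, against 7.08%. The latter were *Cdh1*, *Cdh2*, *Cdh23*, *Pcdh18* and *Pcdh20*, and *Cdh2* and *Pcdh20* are described here because of this difference, after their values were seen. *Cdh2*, N-cadherin, had 3 and 25 counts from the SZC pair against 6 and 153 from the DZC pair, which were 0.136 and 1.08 CPM against 0.373 and 6.85 CPM. DZC replicate 2 was the highest library, 18.4-fold above DZC replicate 1, while the latter lay between the SZC libraries. The log2 fold change between the zones was -2.56 with a standard error of 1.40 (FDR 0.732, exact test of edgeR). Without DZC replicate 1, *Cdh2* would be called higher in DZCs (FDR 0.00182, exact test of edgeR), and without DZC replicate 2 its log2 fold change was 0.72. *Pcdh20* had 1 and 12 counts from the SZC pair against 0 and 60 from the DZC pair, so that the zones overlapped, with a log2 fold change of -2.24 (FDR 0.941, exact test of edgeR). It passed as higher in DZCs without DZC replicate 1 (FDR 0.0173, exact test of edgeR). Without DZC replicate 2, where the remaining DZC library had 0 counts, the sign turned and it did not pass (FDR 0.215, exact test of edgeR). *Cdh26* was found only in DZC replicate 2, with 5 counts.

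Genes of bone and hypertrophic cartilage stood in the same order in the DZC libraries. From DZC replicate 2 against DZC replicate 1, *Ibsp* had 268 counts against 0, *Sp7* had 140 against 1, and *Mmp13* had 468 against 0. *Alpl*, the most read hypertrophic gene tested, had 10 and 5 counts from the SZC pair, 1 from DZC replicate 1 and 445 from DZC replicate 2. In sum the 4 bone genes were at 0.124 CPM in DZC replicate 1 and 18.4 CPM in DZC replicate 2, against 0.499 and 0.474 CPM in SZCs. The 3 hypertrophic genes were at 0.0622 and 50.8 CPM in DZCs, against 1.498 and 0.990 CPM in SZCs. The other genes of the bone list were near 0. *Dmp1* had 2 counts in SZC replicate 1 and 1 in DZC replicate 2, and *Bglap* had 6 counts in SZC replicate 1 and 1 in each of the other libraries. The part of such cells in the values of *Cdh2*, *Pcdh20* and *Pcdh18* was not tested.

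**Figure D4:**
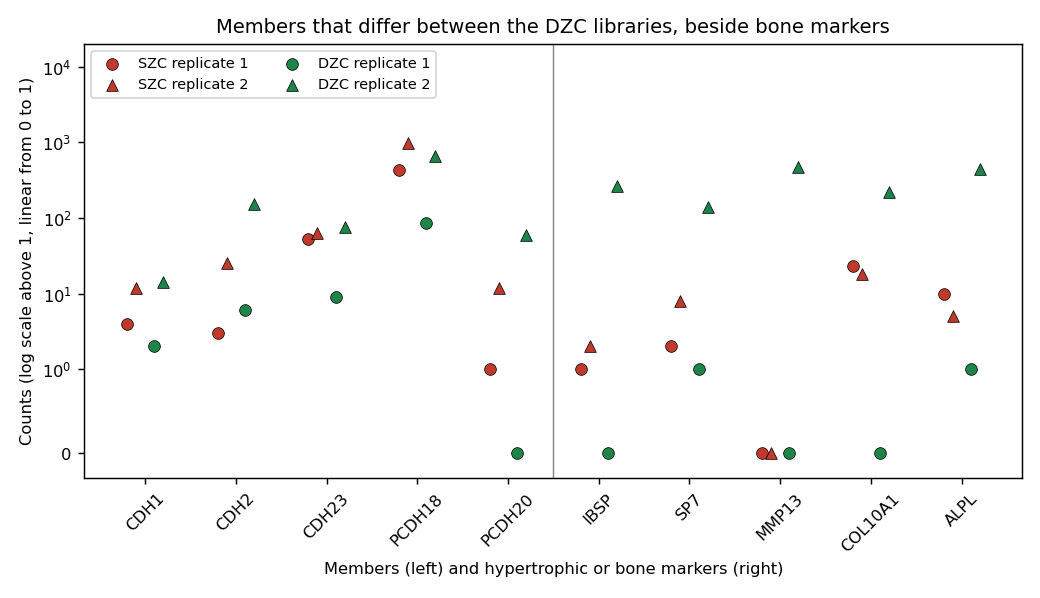
Counts (log scale above 1, linear from 0 to 1) in each library of the 5 tested members that were more than 4-fold lower in DZC replicate 1 than in DZC replicate 2, left of the line, and of 5 markers of bone or hypertrophic cartilage, right of the line. For *Cdh2* and *Pcdh20*, as for the markers, DZC replicate 2 (green triangle) was the highest library, with 153 and 60 counts, while for *Pcdh18* it was SZC replicate 2.

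The 15 members that were not tested had at most 10 counts in any library. *Cdh10*, *Cdh12*, *Cdh16*, *Pcdhb1* and *Pcdh15* had 0 counts in all 4 libraries, and a further 4 (*Cdh4*, *Cdh9*, *Pcdha2* and *Pcdha3*) had at most 3. *Cdh18* had 6 counts in SZC replicate 2 and none elsewhere, and *Cdh22* was counted 6, 2, 0 and 2 times. At this depth a level under 3 counts cannot be told from none.

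Genes that work with cadherins were read from 8 lists, with 67 of 91 genes tested. None was called between the zones by edgeR's exact test, with 8 at an unadjusted *p* under 0.05 (9.09% of all tested genes were), and 0 were called by edgeR's quasi-likelihood test or by DESeq2. Scaling by library totals called *Dchs1*, and the replicate block called *Fat4*, *Fat2* and the actin linker *Ajuba*. The median log2 fold change over the 67 was 0.09. With DZC replicate 1 left out 10 were called, against 6.68% of all tested genes, and with DZC replicate 2 left out 19, against 21.5%. With SZC replicate 1 or SZC replicate 2 left out, 0 were called. β-catenin (*Ctnnb1*), the link from classical cadherins to actin, was at 263 and 316 CPM in SZCs and at 225 and 460 CPM in DZCs, with both SZC values inside the DZC range. It was the most read of 8 tested catenins and plakophilins, whose log2 fold changes lay between -0.83 and 0.96. The 10 tested actin linkers lay between -1.66 and 1.11, and α-actinin-4 (*Actn4*), with the most reads, was at 0.13. The 3 tested nectins, of which *Nectin2* had the most reads, lay between 0.09 and 0.39.

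Among the 9 tested genes of the WAVE complex, the actin regulator that delta-2 protocadherins bind, the log2 fold changes lay between -0.29 and 1.05, and *Nckap1*, its most read subunit, was at -0.29. The 9 tested genes of CTCF and cohesin, which fold the protocadherin clusters, lay between -0.40 and 0.47, with *Rad21* the most read. The log2 fold changes of 6 tested repressors of cadherin transcription lay between -0.80 and 1.60, with a median of 0.48. *Snai2* had the most reads, at 264 and 343 CPM in SZCs and 511 and 365 CPM in DZCs. Its DZC values were above its SZC values, with a log2 fold change of -0.53 (FDR 0.861, exact test of edgeR). The 10 enzymes that cut cadherins or their precursors lay between -0.54 and 0.76, and *Furin*, with the most reads, was at -0.05.

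The list of other cadherin superfamily genes held 5 of the 8 genes with an unadjusted *p* under 0.05, out of 12 tested, where 9.09% of all tested genes had one. None passed the FDR threshold, and the genes named next were chosen after their values were seen, apart from *Fat1*, the most read. *Fat1* had 6653 and 11082 counts from the SZC pair against 1727 and 9456 from the DZC pair. Its log2 fold change of 0.55 became 1.88 without DZC replicate 2. *Dchs1* and *Fat4*, a known ligand and receptor pair of planar cell polarity, were both higher in each SZC library than in either DZC library. *Dchs1* had 5251 and 3759 counts from the SZC pair against 1632 from each DZC library, a log2 fold change of 1.20 ± 0.40 (SE), with an FDR of 0.0931 from the exact test of edgeR. *Fat4* had 1943 and 2498 counts from the SZC pair against 51 and 735 from the DZC pair. Its log2 fold change was 2.44 ± 0.93 (SE), with an FDR of 0.260 from the exact test of edgeR. The fold change became 4.97 without DZC replicate 2 and 1.57 without DZC replicate 1. *Fat4* passed with either DZC library left out, but not with either SZC library left out. *Dchs1* likewise passed with either DZC library left out and not with either SZC library left out. Its log2 fold change was 1.45 without DZC replicate 1 and 1.00 without DZC replicate 2. *Celsr1*, *Dsg2* and *Fat2* had log2 fold changes of -2.35, -1.63 and -3.77, and passed without DZC replicate 1. *Fat2* had 216 counts in DZC replicate 2 but 9 in DZC replicate 1.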

How the data were processed

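RNA-Seq counts of 2 SZC and 2 DZC libraries were analysed. The authors aligned the reads with STAR 2.5.2b to the Ensembl cow genome build UMD 3.1, and deposited the counts per gene of an unstranded library, without normalization, so reads of a gene and of an antisense partner could not be told apart. From the authors' table of their own comparison (log2 fold changes and FDR, not used here), only gene names were taken. ATAC-Seq was not analysed here.

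Members were found by name. Members, gene lists and tests were chosen with earlier results of these data known. Counts were scaled by TMM and compared by the exact test of edgeR 4.0.16 (R 4.3.3) as in the paper's methods, with edgeR's default filter and dispersions and Benjamini–Hochberg adjustment over 12857 genes. The paper's text names neither filter nor dispersion estimator. Standard errors follow from the gene-wise dispersion. Fold changes compare zones within a gene, and transcript lengths of that build were not used here, so ranks by reads and sums over genes are of reads, which longer transcripts give more of.

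Named are called members, tested members with separate zones and a log2 fold change of at least 1, the 5 tested members with most CPM, and in each list called genes and the most read gene. Others are given by counts or ranges, or were named after their values were seen. Replicates of a zone differed by more than sampling noise (chi-square per degree of freedom 62.5 for SZCs and 305 for DZCs). Of 40 members, 36 matched a RefSeq symbol (ARS-UCD2.0), used only for gene order. Marker lists covered chondrocyte, superficial zone, endothelial, synovial fibroblast, haematopoietic, bone, hypertrophic, muscle, Schwann cell and epithelial genes. Scripts were tested on simulated data. Alternatives were the quasi-likelihood test, DESeq2 1.42.0, other scaling and filters, a replicate block, and leaving out each library.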

Additional observations from a re-analysis of the deposited data

How the results depend on the processing

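The exact test called 2 members (1 higher in SZCs, 1 in DZCs), and the same 2 were called with DESeq2, with its size factors in edgeR, with libraries scaled by their totals, without a filter and when genes had to exceed 1 CPM in 2 libraries. The quasi-likelihood test of edgeR called 0 members in either direction and 0 genes in all, with 5 members and 1126 genes at an unadjusted *p* under 0.05, so the calls rest on the choice of test. With each library left out in turn, where the lone library is assumed to vary like the other zone, between 1 and 6 members were called, with 0 to 5 higher in SZCs and 1 to 3 higher in DZCs. Over all genes this gave 68 to 2768 calls against 377, with 62 to 1656 higher in SZCs and 6 to 1112 higher in DZCs, and 0 to 19 partner genes. Scaling by totals moved the median of all tested genes by 0.30, gave 44 genes higher in DZCs against 90 and called 1 partner gene, *Dchs1*. It moved the median of the tested members from 0.12 to 0.50, and that median was 0.35 without a filter and 0.35 with the stricter one. Of the 25 tested members, scaling by totals turned the direction of *Cdh1* alone, from -0.14 to 0.04. With each library left out, the median of the tested members ranged from -0.060 (without DZC replicate 1) to 0.72 (without DZC replicate 2). *Pcdh1* ranged from -0.26 (without DZC replicate 2) to 0.46, with -0.15 without SZC replicate 2. Other members also changed sign, among them *Cdh3* (-0.25 to 0.67), *Cdh24* (-0.14 to 1.75) and *Cdh6* (-2.66 to 0.12). The cause of these changes was not tested.

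Libraries of the zones carry the same replicate numbers, and the methods cut the slices of both zones from the same cores, but no source says that a number marks a shared joint or calf. Across all tested genes, same-numbered libraries deviated together (correlation 0.42). The replicate block raised the calls of the quasi-likelihood test to 347 genes, 277 of them shared with the 377, and 3 members, 2 of them higher in SZCs. These were *Pcdh10* (FDR 0.00174 by edgeR), *Cdh15* (0.0270) and *Cdh13* (0.0458), while *Cdh11* had 0.105. With the block, 3 partner genes were called, *Fat4*, *Fat2* and *Ajuba*.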

Other observations

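*Sox10*, a transcription factor known from Schwann cells, had 181 and 187 counts from the SZC pair against 234 and 146 from the DZC pair.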
